A study of Mus musculus with 60 samples.

Results

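Subcutaneous white adipose tissue (scWAT) was compared with visceral white adipose tissue (vWAT) of the same 5 mice, which had eaten chow and run on a wheel. The comparison used 10 bulk RNA libraries, 1 per depot and mouse, out of 60 in the series, and the libraries were paired by the animal code in their titles. All mice were C57BL/6JN and 12 weeks old. The chow trained mice ate a diet with 10% of its energy from fat for 6 weeks and had a running wheel for the last 3 weeks. Chow sedentary mice ate the same diet without the wheel, high-fat trained mice ate a diet with 60% of energy from fat and had the wheel, and high-fat sedentary mice had that diet alone; each of these groups also gave 5 libraries per depot. Every mouse was fasted for 6 hours before tissue was taken. Trained mice were kept from running for the last 24 hours by locking the wheels, so the values describe trained fat at rest. The labels name neither the sex of the mice nor the visceral pad that was dissected.

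White fat stores triglyceride, but depots differ in embryonic origin, in covering and in how readily they turn to heat production. Subcutaneous fat of mice can hold beige adipocytes, cells rich in mitochondria that burn fatty acids and waste the energy as heat through the uncoupling protein UCP1. Visceral fat lies in the body cavity, is covered by mesothelium, a flat epithelium, and is known as a source of angiotensinogen and retinol-binding protein. The pattern of HOX and T-box transcription factors laid down in the embryo stays on in adult adipocyte precursors and tells depots apart.

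Libraries held 583511 to 688566 estimated counts in scWAT and 597493 to 655924 in vWAT. Levels are given as CPM, counts scaled to a common library total; mice are numbered 1 to 5 by the replicate number in the labels, and log2 fold changes are scWAT over vWAT from edgeR's paired fit with their standard error (SE). Of 5571 genes tested, 357 had a Benjamini-Hochberg adjusted p below 0.05 and are called here, or 6.41%. Higher in scWAT were 109 (1.96%), and 248 were higher in vWAT (4.45%). On plain library totals in place of TMM scaling the split was 84 against 374. The median log2 fold change of all genes then lay at −0.12 in place of 0.01. Without the expression filter, with 21258 genes tested, the split turned to 517 against 461. With the main settings, the number called was 155, 204 and 236 without mouse 4, 5 or 2. All 5 libraries of a depot lay outside the range of the other depot for 485 genes (8.71%).

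Several libraries carried transcripts of other tissues, and these were set aside by rule when genes were named. Reads of an 18-gene skeletal muscle list came to 5971, 228, 74698, 30935 and 9973 in the scWAT of mice 1 to 5, or 0.967%, 0.0372%, 10.8%, 5.30% and 1.62% of all reads, against 85 to 378 reads in vWAT. Only the scWAT of mouse 2 lay within the vWAT range. Reads of 10 B cell genes came to 400, 191 and 449 in the scWAT of mice 2, 4 and 5 but to 5 and 6 in mice 1 and 3, and 10 T and NK cell genes split the same libraries. Epididymis and vas deferens genes had 1361 reads in the vWAT of mouse 3 and 2 to 16 in the other vWAT libraries, with 12 of the 22 measured genes at 0 throughout. Heart genes had 697 and 864 reads in the vWAT of mice 1 and 2 and 5 to 10 in the other 3. Haemoglobin and Alas2 reads were higher in vWAT, at 4392 to 10832 against 2116 to 4517. Of the 357 called genes, 25 belonged to such lists, were at least 10 times higher in triceps, had over 60% of their signal in 1 library, or were predicted genes and pseudogenes. The comparison was also fitted in 2 other ways that bear on these reads. In a fit of all 40 fat libraries with scores for muscle, B cell and epididymis reads as covariates, 144 genes of the comparison were called (1.82% of 7931). After a muscle profile taken from triceps and scaled to the muscle list was subtracted from each library, 26 were called (0.461% of 5634), 24 of them among the 357. Both depots expressed the 8 adipocyte markers, which summed to 2.87% to 4.58% of reads in scWAT and 3.97% to 4.84% in vWAT. Within mice the sum was lower in scWAT in all 5, at 3.39% ± 0.717 against 4.34% ± 0.368 (SD, n = 5). An exact sign-flip permutation test gave p = 0.063, the smallest that 5 pairs can give.

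**Figure D1:**
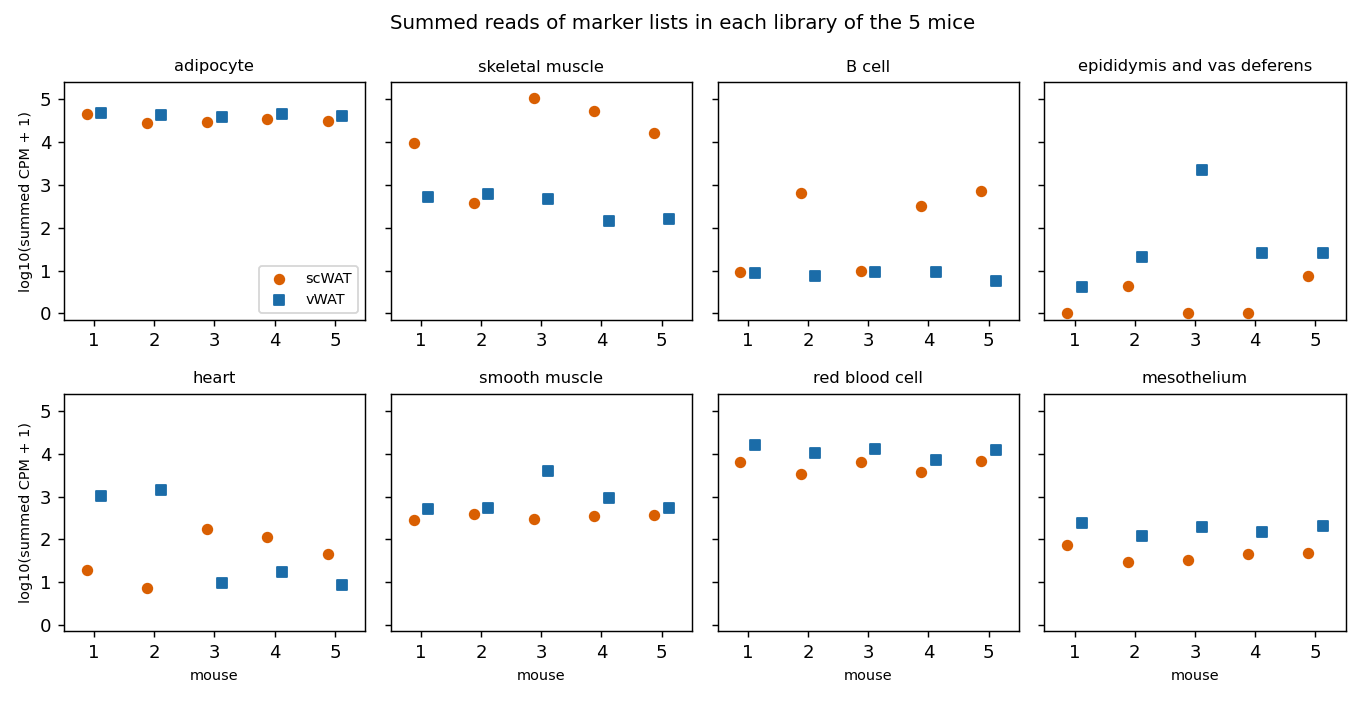
Summed CPM of 8 marker lists in each library, plotted as log10(CPM + 1) against mouse number, circles for scWAT and squares for vWAT. Muscle list reads in scWAT run from 0.0372% to 10.8% of a library, B cell reads mark the scWAT of mice 2, 4 and 5, and epididymis reads mark the vWAT of mouse 3.

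Some genes of heat production were higher in scWAT. Cidea, a lipid droplet protein of brown and beige adipocytes on chromosome 18, measured 415, 1126, 366, 399 and 458 CPM in scWAT of mice 1 to 5. In vWAT it measured 25.9, 27.5, 16.7, 23.1 and 12.5 CPM. The depots did not overlap, mouse 2 being the highest in both, and the log2 fold change was 4.74 ± 0.24 (SE, n = 5 pairs; adjusted p = 4.92e-08, edgeR). Within the list of 16 heat production genes, 8 could be tested. Of these, 3 were called higher in scWAT (Cidea, Ucp1 and Cox8b) and 1 in vWAT (Adrb3), against 1.96% and 4.45% of all genes. The median of the 8 log2 fold changes was 1.63 beside 0.01 for all genes tested. With the scores 1 was called in each direction, Cidea in scWAT and a gene other than Adrb3 in vWAT, and the median was 0.48. After muscle subtraction 2 were called, both higher in scWAT, and the median was 0.89. In bulk tissue, more cells of a type and more RNA per cell cannot be told apart.

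Ucp1, which lets protons leak across the inner mitochondrial membrane, was read in every scWAT library and in no vWAT library. Its scWAT level was 30.8, 860.3, 33.4, 22.3 and 127 CPM in mice 1 to 5. The level of mouse 2 was far above the other 4, so the gene was set aside from the naming rule. Over both sums it was at least 220.1-fold higher in scWAT, taking 3 counts over the 5 vWAT libraries as the most that no read allows. Without the scWAT library of mouse 2, that bound was 55.2-fold.

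Cox8b, a cytochrome oxidase subunit of brown fat and muscle, measured 866, 1424, 1119.7, 838 and 826 CPM in scWAT and 284, 374, 177, 211 and 109 CPM in vWAT. All scWAT libraries were above all vWAT libraries, by 2.35 ± 0.22 log2 units (adjusted p = 2.20e-05, edgeR). Cox8b is also a muscle gene, with a mean of 1880.2 CPM in the triceps of these mice. Its estimate was 2.20 with mice 1, 2 and 5, whose scWAT held the fewest muscle reads, but the call was lost after muscle subtraction (0.92, adjusted p = 0.824, edgeR) and with the scores (0.60, adjusted p = 0.809). Elovl3, Cpt1b and Otop1, which are other genes of brown and beige fat, were below the filter, with 71, 90 and 34 reads over the 5 scWAT libraries against 4, 3 and 2 in vWAT. Mouse 2 had 40 of the 71 Elovl3 reads and 44 of the 90 Cpt1b reads. Ppargc1a, a coactivator of mitochondrial genes, had 43 against 49 reads, and Prdm16, a regulator of brown and beige fat cells, had 17 against 14.

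Adrb3, the β3-adrenergic receptor that signals lipolysis and heat production, went the other way. It measured 121, 45.7, 85.7, 90.8 and 61.8 CPM in scWAT and 183, 212, 167, 221 and 173 CPM in vWAT. The scWAT libraries were all lower, with a log2 fold change of −1.15 ± 0.21 (adjusted p = 0.00512, edgeR). Its call was lost with the scores (−0.84, adjusted p = 0.131, edgeR) and after muscle subtraction (−0.89, adjusted p = 0.282, edgeR). Cox7a1 and Fabp3 from the same list were not called, with adjusted p = 0.279 and 0.874 by edgeR. Fabp3 read 495 and 697 CPM in the vWAT of mice 1 and 2, the pair with heart reads, and 15.1, 0 and 0 CPM in that of mice 3, 4 and 5. Its scWAT values of 37.2 to 204 CPM lay between them.

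**Figure D2:**
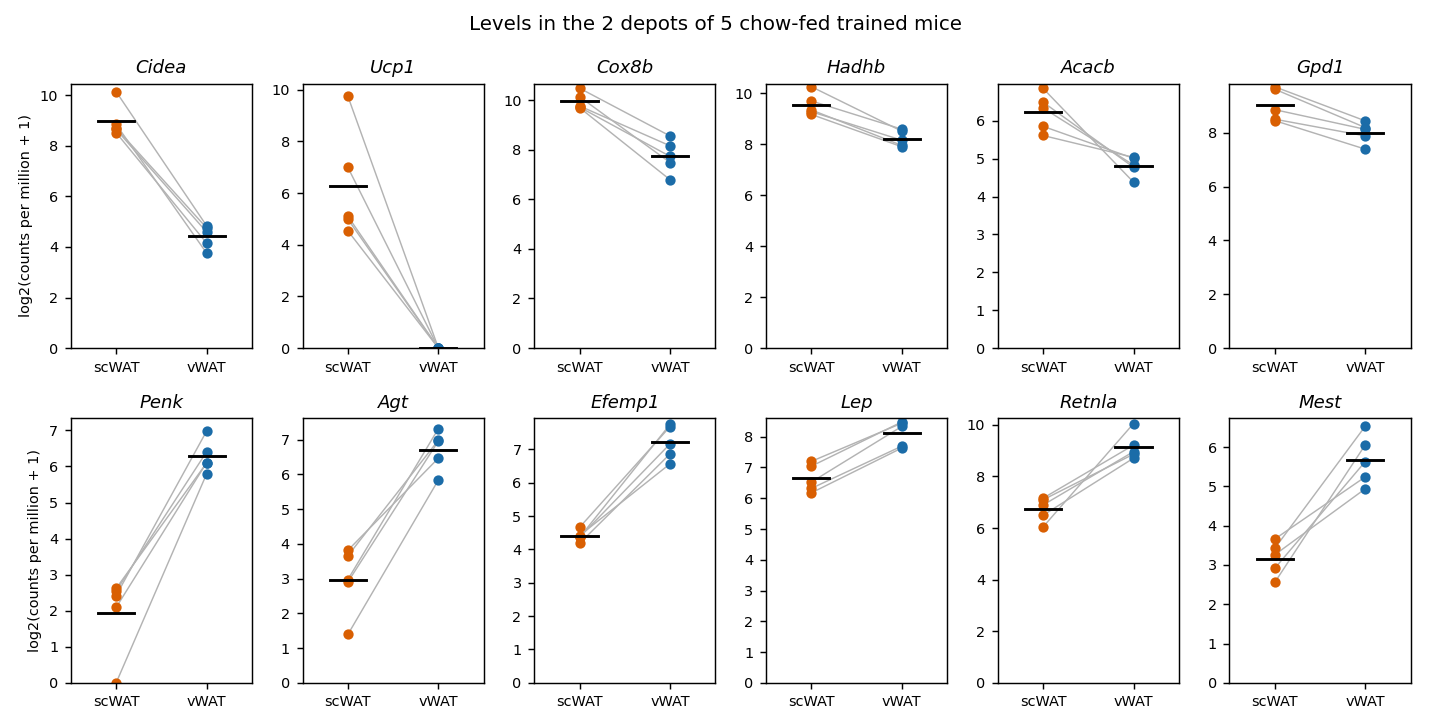
Level of 12 genes as log2(CPM + 1), with grey lines joining both depots of 1 mouse and black bars at the mean of 5. Ucp1 is at 0 in all vWAT libraries and spread from 22.3 to 860.3 CPM in scWAT, while Penk, Agt and Efemp1 are higher in vWAT in all 5 mice.

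Genes of fatty acid oxidation were higher in scWAT. Of 23 listed, 21 were tested, 10 were called higher in scWAT and none in vWAT, against 1.96% of all genes, with a median log2 fold change of 0.58. With the scores 5 were called and the median was 0.74, and after muscle subtraction 1 was called and the median was 0.56. Hadhb and Hadha encode the subunits of the mitochondrial trifunctional protein, which carries out the last steps of long-chain fatty acid oxidation. They lie head to head on chromosome 5, Hadha on the minus strand at 30118304 to 30155162 and Hadhb on the plus strand at 30155248 to 30184593 (GRCm38, GENCODE vM21). The 85 bases between their annotated ends, from RefSeq on GRCm38.p6 at chr5:30155163-30155247, plus strand, are shown because it lies between the annotated starts of both genes and both were called; capitals mark GGGCGG, the GC box.
Hadha and Hadhb: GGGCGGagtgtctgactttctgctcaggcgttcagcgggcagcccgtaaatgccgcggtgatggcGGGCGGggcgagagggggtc
The stretch held 2 GC boxes, searched on both strands, and 69.4% of its bases were G or C. A GC box stood in the last 85 bases before the start in 22.8% of 32817 RefSeq promoter windows, whose median G and C share was 55.3%.

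Hadhb measured 834, 1231, 654, 578 and 622 CPM in scWAT and 386, 366, 248, 239 and 286 CPM in vWAT. The depots did not overlap, and the log2 fold change was 1.47 ± 0.17 (adjusted p = 0.000196, edgeR). Hadha measured 264, 322, 224, 179.9 and 226 CPM in scWAT and 154, 193, 137, 152 and 136 CPM in vWAT. It was higher in scWAT in 5 of 5 mice, by 0.78 ± 0.16 (adjusted p = 0.00795, edgeR), although the lowest scWAT library lay under the highest vWAT library.

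The fatty acid route into and through the mitochondrion showed the same direction at several steps. Acsl1, which activates fatty acids, was higher in scWAT by 0.71 ± 0.15 log2 units. Slc25a20, the carrier of acylcarnitines across the inner membrane, measured 164, 240.0, 106, 147 and 112 CPM in scWAT and 82.3, 71.2, 56.9, 85.7 and 74.9 CPM in vWAT, a log2 fold change of 1.14 ± 0.19 without overlap (adjusted p = 0.00242, edgeR). Acadvl, the very-long-chain acyl-CoA dehydrogenase, measured 351, 433, 306, 284 and 328 CPM in scWAT and 148 to 212 CPM in vWAT, a log2 fold change of 1.13 ± 0.16. Etfb and Etfdh, which pass the electrons on to the respiratory chain, were higher by 0.86 ± 0.15 and 1.05 ± 0.19. Pdk4, the kinase that closes pyruvate dehydrogenase, measured 110.1, 158, 260.0, 82.3 and 52.0 CPM in scWAT and 18.3 to 32.4 CPM in vWAT. Its highest value was in the scWAT of mouse 3, the library with the most muscle reads. Cpt1a, the entry enzyme of liver-type cells, stood at −0.14 and was not called.

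Of 18 tricarboxylic acid cycle genes, all tested, 3 were called higher in scWAT, against 1.96% of all genes, and none in vWAT, with a median of 0.48. Idh3a, a subunit of isocitrate dehydrogenase, measured 916, 1136, 742, 619 and 738 CPM in scWAT and 588, 503, 278, 315 and 414 CPM in vWAT. The depots did not overlap, and the log2 fold change was 1.14 ± 0.18 (adjusted p = 0.00166, edgeR). Sdhb, a subunit of succinate dehydrogenase, was called at 0.75 ± 0.18, but its depots overlapped and its call held in 2 of the 5 fits without 1 mouse.

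For the respiratory chain, 11 of 70 nuclear genes were called, all higher in scWAT, against 1.96% of all genes, and 64 had a positive log2 fold change; the median was 0.39 and the largest 0.69, for Ndufs7. None of the 70 was called with the scores, where the median was 0.22, or after muscle subtraction, where it was −0.58. The count also moved with single mice and was 20 without mouse 1, 5 without mouse 2, 5 without mouse 3, 0 without mouse 4 and 3 without mouse 5. Of 13 genes of the mitochondrial genome, 5 were called, all higher in scWAT, against 1.96% of all genes, with a median of 0.50. mt-Atp6, an ATP synthase subunit, measured 33196, 37293, 25004, 25617 and 25479 CPM in scWAT and 17250.5, 17773, 19656, 20124 and 18942 CPM in vWAT, without overlap (0.76 ± 0.15, adjusted p = 0.00659, edgeR). mt-Co3, a cytochrome oxidase subunit, gave 0.74 ± 0.15. mt-Nd5, mt-Nd3 and mt-Nd6 lay at −0.32, −0.28 and −0.18 and were not called. Summed, protein genes of the mitochondrial genome took 15.1% ± 2.44 of reads in scWAT and 10.7% ± 0.678 in vWAT (SD, n = 5), higher in 5 of 5 mice (exact sign-flip permutation test, two-sided, p = 0.063, the smallest that 5 pairs can give). The whole mitochondrial genome, with its other genes, differed less, at 20.9% ± 1.38 in scWAT and 18.2% ± 2.23 in vWAT. In mouse 4 its shares were 20.4% and 20.2%.

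Muscle is rich in the same enzymes, and the values are given also where muscle reads were few. In mouse 2, whose scWAT held fewer muscle reads than its vWAT, the median difference over the tested members was 0.79 for fatty acid oxidation, 0.52 for the tricarboxylic acid cycle, 0.34 for the nuclear respiratory chain and 0.53 for the mitochondrial genome. In mouse 1, with the next fewest muscle reads in scWAT, the medians were 0.59, 0.12, 0.13 and 0.55. In mouse 3, with the most, they were 0.79, 0.78, 0.68 and 0.54. The tricarboxylic acid cycle and nuclear respiratory medians were thus highest in mouse 3 and lowest in mouse 1. The vWAT of mice 1 and 2 held 697 and 864 heart reads, against 5 to 10 in mice 3 to 5. How far heart reads enter these medians was not tested.

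With mice 1, 2 and 5 alone, 120 genes were called in all. Of the lists, 3 fatty acid oxidation genes, 1 tricarboxylic acid cycle gene, 0 of 70 nuclear respiratory genes and 0 of 13 mitochondrial genome genes were called by edgeR, where 742 of all genes had an unadjusted p below 0.05; the list medians were 0.64, 0.36, 0.29 and 0.53. After muscle subtraction the medians of the last 3 lists were below 0, at −0.37, −0.58 and −0.84, with no member called, where 736 of all genes had an unadjusted p below 0.05. By gene, Cidea stood at 4.99, Mbp at 2.69, Hadhb at 1.44 and Acacb at 1.69 after the subtraction, all still called, and Idh3a at 0.10, Sdhb at −0.34 and mt-Atp6 at −0.21, not called. The subtraction put muscle at 81.4% of the triceps level in the scWAT of mouse 3, whose adipocyte list reads, at 19936, lay within the 17600 to 28292 of the other scWAT libraries. How much of the respiratory chain difference is muscle RNA was not tested beyond these values.

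Synthesis of fatty acids and triglyceride differed less. All 23 genes were tested, 3 were called higher in scWAT, against 1.96% of all genes, and none in vWAT, with a median of 0.17. Without mouse 1 the median was −0.04, with 3 called in each direction; in single mice the median was 1.02 in mouse 1 and −0.29 in mouse 5. Acacb, the acetyl-CoA carboxylase that sits on mitochondria, measured 115, 80.0, 47.9, 89.1 and 56.9 CPM in scWAT and 19.8, 27.5, 31.8, 26.4 and 31.2 CPM in vWAT, a log2 fold change of 1.59 ± 0.25 without overlap (adjusted p = 0.00163, edgeR). Gpd1, which makes glycerol 3-phosphate, was higher by 1.16 ± 0.17. Acacb and Gpd1 lost their calls with the scores (adjusted p = 0.0716 and 0.0520, edgeR). Gpd1 lost its call also after muscle subtraction (adjusted p = 0.0698, edgeR). Acly, which makes cytosolic acetyl-CoA, was called at 0.81 ± 0.21 but overlapped, with 447 to 1805 CPM in scWAT and 325 to 1308 CPM in vWAT, and its call held in 1 of 5 fits without 1 mouse. Fasn, fatty acid synthase, measured 2610.2, 1105, 837, 949 and 1290.3 CPM in scWAT and 959, 1634, 678, 946 and 1571 CPM in vWAT. Only mouse 1 had a scWAT level well above vWAT, and the gene was not called (0.31 ± 0.25, adjusted p = 0.570, edgeR).

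Among the other genes named by the rule, Mbp and Col1a1 mark cells other than adipocytes. Mbp, myelin basic protein, on chromosome 18, measured 59.9, 44.1, 26.1, 84.0 and 50.4 CPM in scWAT and 5.02 to 13.2 CPM in vWAT, a log2 fold change of 2.54 ± 0.26 (adjusted p = 6.49e-05, edgeR). S100b, a Schwann cell marker, had 26 reads in scWAT against 2 in vWAT. Pmp22, another myelin protein, was not called, at −0.53, and the summed Schwann cell list overlapped between depots, at 111 to 217 reads in scWAT and 115 to 227 in vWAT. Col1a1, a chain of fibrillar collagen, measured 142, 132, 134, 129 and 114 CPM in scWAT and 59.5, 80.9, 88.7, 67.6 and 56.2 CPM in vWAT, higher in scWAT by 1.03 ± 0.16. It was the only called gene of 12 tested collagens, where 6.41% of all genes were called. In the fit of all 40 fat libraries without scores its adjusted p was 0.0583 (edgeR). That fit called 3 of 14 tested collagens higher in vWAT, 2 of them among the 12. Without mouse 1, 3 were called higher in vWAT and 1 in scWAT. With the scores 2 of the 12 were called higher in scWAT and none in vWAT, and Col1a1 stood at 1.92 (adjusted p = 0.00228, edgeR). In the main fit the basement membrane collagens Col4a1 and Col4a2 stood at −0.69 and −0.72 and were not called. Gpx8, a peroxidase of the endoplasmic reticulum, and Gpi1, the glycolytic enzyme glucose-6-phosphate isomerase, were higher in scWAT by 1.36 ± 0.16 and 1.16 ± 0.16. The Gpi1 call was lost after muscle subtraction (0.945, adjusted p = 0.0809, edgeR). The Mbp call was lost with the scores (2.43, adjusted p = 0.0583, edgeR).

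**Figure D3:**
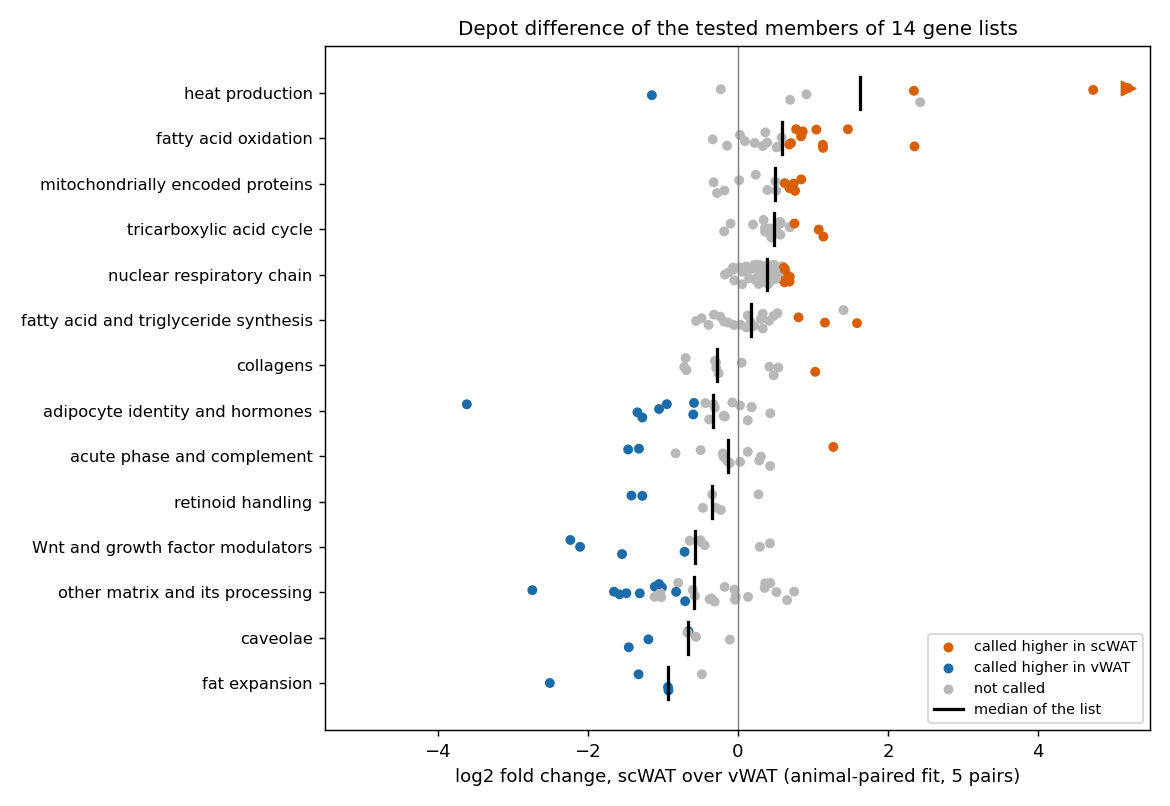
Log2 fold change of each tested member of 14 lists, scWAT over vWAT, with called genes in colour, black bars at the list median, and Ucp1 (10.05) drawn as an arrow at the right edge. The medians of the oxidation and respiratory lists lie right of 0 and those of the matrix, caveolae and fat expansion lists left of it.

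Of the genes named by rank, Penk and Agt had the lowest adjusted p among those higher in vWAT. Penk, the precursor of enkephalin peptides, measured 83.9, 68.0, 126, 67.6 and 54.6 CPM in vWAT of mice 1 to 5. In scWAT it measured 4.86, 3.27, 4.36, 5.14 and 0 CPM, which is 3 reads or fewer per library. The depots were far apart, with a log2 fold change of −4.29 ± 0.33 (adjusted p = 3.94e-06, edgeR). Agt, angiotensinogen, from which angiotensin is cut, measured 123, 87.4, 126, 158 and 56.2 CPM in vWAT and 6.48, 13.1, 11.6, 6.86 and 1.63 CPM in scWAT. Its log2 fold change was −3.61 ± 0.29 (adjusted p = 6.03e-06, edgeR).

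Hormones of the adipocyte followed. Of 20 genes of adipocyte identity and hormones, 19 were tested, 7 were called higher in vWAT, against 4.45% of all genes, and none in scWAT, with a median of −0.33. The list had 4 calls without mouse 4 or mouse 5. With the scores there was 1, and after muscle subtraction there was 1, which was Agt both times. Lep, leptin, which reports fat stores to the brain, measured 346, 356, 197, 206 and 322 CPM in vWAT and 146, 131, 71.2, 78.8 and 91.0 CPM in scWAT. All vWAT libraries were above all scWAT libraries (−1.34 ± 0.16, adjusted p = 0.000271, edgeR). The Lep call was lost with the scores (−0.93, adjusted p = 0.122, edgeR) and after muscle subtraction (−1.09, adjusted p = 0.0939, edgeR). C/EBPα, a master factor of adipocytes, is known to act on the leptin promoter, and its own gene Cebpa was at −0.19 and not called. The 250 bases before the Lep start are printed from RefSeq (GRCm38.p6, chr6:29059971-29060220, plus strand), with capitals on the palindrome TTGCGCAA, a letter pattern of C/EBP sites.
Lep: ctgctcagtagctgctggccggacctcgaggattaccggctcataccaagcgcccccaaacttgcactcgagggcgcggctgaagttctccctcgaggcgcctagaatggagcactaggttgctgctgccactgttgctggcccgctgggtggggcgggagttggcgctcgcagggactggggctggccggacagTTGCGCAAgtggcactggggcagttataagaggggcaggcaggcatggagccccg
The palindrome starts 55 bases before the RefSeq start. It is its own reverse complement, stood in 0.165% of 32817 promoter windows of that length, and was found in 1 of the 43 genes named here that had a window.

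Retn, resistin, measured 5807, 5289, 4519, 3729 and 4482 CPM in vWAT and 1693 to 3015 CPM in scWAT, a log2 fold change of −1.05 ± 0.16 without overlap. Its call was lost with the scores and after muscle subtraction (adjusted p = 0.327 and 0.242, edgeR). Rbp4, retinol-binding protein, measured 1410.2, 1367, 793, 875 and 1379 CPM in vWAT and 732, 291, 434, 370.2 and 403 CPM in scWAT (−1.27 ± 0.22). Adipoq, adiponectin, was called at −0.58 ± 0.16 (adjusted p = 0.0417, edgeR), with 5113 to 7717 CPM in vWAT and 2991 to 5233 CPM in scWAT; the ranges overlapped and the call held in 1 of 5 fits without 1 mouse. Lpl, which frees fatty acids from lipoproteins, stood at −0.95 ± 0.19. Pparg, Plin1, Fabp4, Lipe and Pnpla2, which make up the core of the adipocyte programme, lay between −0.33 and 0.18 and were not called.

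Genes whose level in mouse fat is known to follow fat expansion were higher in vWAT. Of 6 listed, 5 were tested and 4 were called, all higher in vWAT, against 4.45% of all genes, with a median of −0.93. Mest, an imprinted gene of the mesoderm, measured 91.5, 48.5, 36.8, 29.7 and 65.6 CPM in vWAT and 9.72, 6.53, 11.6, 8.57 and 4.88 CPM in scWAT, a log2 fold change of −2.51 ± 0.34 (adjusted p = 0.000550, edgeR). Npr3, the receptor that clears natriuretic peptides, was called at −1.32 ± 0.22, and Nnmt, nicotinamide N-methyltransferase, at −0.93 ± 0.16. With the scores as covariates 2 of the 5 were called. After muscle subtraction none was called and the median was −0.68. Sncg, γ-synuclein, was not called at −0.48.

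The matrix around the cells differed in make-up. Of 41 non-collagen matrix genes, 30 were tested and 10 were called, all higher in vWAT, against 4.45% of all genes, with a median of −0.59. The count was 5 without mouse 2, 6 without mouse 4 and 5 without mouse 5, and 1 with the scores, where the median was −0.08. Efemp1, fibulin-3, measured 204, 142, 93.7, 115 and 214 CPM in vWAT and 24.3, 19.6, 20.3, 17.1 and 19.5 CPM in scWAT, a log2 fold change of −2.74 ± 0.23 (adjusted p = 6.94e-06, edgeR). Fn1, fibronectin, measured 117, 85.8, 85.4, 77.4 and 70.3 CPM in vWAT and 19.6 to 34.9 CPM in scWAT (−1.65 ± 0.22). Dcn, decorin, which binds collagen fibrils, measured 1091 to 1598 CPM in vWAT and 341 to 509 CPM in scWAT (−1.31 ± 0.17). Nid1, Nid2 and Lama4 of the basement membrane were called at −0.82, −1.49 and −0.70, but each held in only 1 or 2 of the 5 fits without 1 mouse. Lox, Mmp2 and Mmp14, which cross-link or cut matrix, stood at 0.75, 0.51 and 0.66 and were not called.

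Some growth factor modulators and retinoid genes were higher in vWAT. Of 33 Wnt and growth factor modulators, 10 were tested and 4 were called, all higher in vWAT, against 4.45% of all genes. Without mouse 1 there were 7 in vWAT and 1 in scWAT, without mouse 4 or 5 there were 2 in vWAT, and with the scores there was 1 in scWAT and none in vWAT. Chrdl1, a secreted antagonist of bone morphogenetic proteins, measured 77.8, 61.5, 65.3, 112 and 53.1 CPM in vWAT and 9.72 to 22.3 CPM in scWAT (−2.23 ± 0.24, adjusted p = 0.000102, edgeR). Igfbp6, which binds insulin-like growth factors, and Igf1 itself stood at −2.10 ± 0.27 and −0.71 ± 0.15. Aldh1a1, which makes retinoic acid from retinal, measured 207, 110.0, 204, 158 and 148 CPM in vWAT and 46.3 to 71.2 CPM in scWAT (−1.42 ± 0.17). Rbp4 was the other of 2 called among 7 tested retinoid genes, both higher in vWAT, against 4.45% of all genes. None of the 7 was called with the scores or after muscle subtraction, and Aldh1a1 then had an adjusted p of 0.486 and 0.226 (edgeR).

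Of 14 tested acute phase and complement genes, 2 were called higher in vWAT and 1 in scWAT, with a median of −0.13. Of all genes, 4.45% and 1.96% were called in these directions. Hp, haptoglobin, which binds free haemoglobin, measured 1238, 1372, 1232, 1341 and 1160.0 CPM in vWAT and 384 to 681 CPM in scWAT (−1.32 ± 0.17, adjusted p = 0.000349, edgeR). Outside that list, Lbp, the lipopolysaccharide-binding protein, was steady within depots, at 48.5 to 59.3 CPM in vWAT and 8.16 to 13.0 CPM in scWAT (−2.29 ± 0.25). Gsta3, a glutathione transferase, measured 334, 298, 325, 216 and 311 CPM in vWAT and 105, 65.3, 30.5, 13.7 and 37.4 CPM in scWAT (−2.61 ± 0.28). With the scores the calls of Lbp (−2.15, adjusted p = 0.0523, edgeR) and Gsta3 (−1.23, adjusted p = 0.386, edgeR) were lost. Both calls held after muscle subtraction. Cd55, which restrains complement on cell surfaces, was higher in scWAT (1.27 ± 0.31), where the libraries of mice 2, 4 and 5, those with lymphocyte reads, held 116, 73.7 and 104 CPM and those of mice 1 and 3 held 34.0 and 39.2. It was higher in scWAT in 4 of 5 mice, its call held in 2 of 5 fits without 1 mouse, and it was lost with the scores (0.55, adjusted p = 0.594, edgeR). Reads of 8 liver marker genes also differed without overlap, at 273 to 1324 in scWAT and 1448 to 2423 in vWAT. Most were of Cyp2e1, which fat also expresses, with 2636 reads over the scWAT libraries and 8852 over the vWAT libraries. The other 7 genes together had 911 and 925, but the direction was not the same in all mice. The median difference of the 4 tested liver genes was 2.32 and 2.05 in mice 1 and 2. In mice 3 to 5 it was −3.16, −1.79 and −2.64. Alb, albumin, had 303 and 500 reads and was not called. The part of liver RNA in Hp, Lbp, Agt and Rbp4 was not tested further. C3, Orm1 and Cfb stood at −0.15, −0.19 and 0.13 and were not called.

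Caveolae, the membrane pits that adipocytes and endothelium carry, were represented by 6 genes. Of these, 3 were called, all higher in vWAT, against 4.45% of all genes. Cav1 measured 2737, 2129, 1889.6, 1806 and 2201 CPM in vWAT and 1132, 878, 723, 719.8 and 848 CPM in scWAT (−1.19 ± 0.15, adjusted p = 0.000311, edgeR). Cavin3 and Cav2 stood at −1.45 ± 0.19 and −0.66 ± 0.15. None of the 6 was called with the scores, where their median was −0.05, and 5 were called without mouse 1 and 2 without mouse 2, 4 or 5. Markers of endothelium moved by less, with 1 of 9 called higher in vWAT (Esam, −0.72 ± 0.20), against 4.45% of all genes. Their summed level was 362 to 460 CPM in scWAT and 467 to 740 CPM in vWAT. Tuba1a, Anxa1 and Glb1l2, also named by the rule, were higher in vWAT, at −1.71 ± 0.16, −1.49 ± 0.18 and −1.38 ± 0.17. Anxa1 and Glb1l2 lost their calls after muscle subtraction (adjusted p = 0.0830 and 0.0614, edgeR). Glb1l2 lost its call also with the scores (−0.68, adjusted p = 0.419, edgeR).

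Retnla was the only called gene of 11 tested macrophage markers, where 6.41% of all genes were called. This secreted product of alternatively activated macrophages measured 1058, 464, 497, 417 and 593 CPM in vWAT and 64.8, 136, 118, 89.1 and 141 CPM in scWAT (−2.26 ± 0.33, adjusted p = 0.00511, edgeR). The summed macrophage list overlapped, at 191 to 998 reads in scWAT and 617 to 1418 in vWAT, and its scWAT reads were highest in mice 2 and 5, which also held lymphocyte reads. The 6 tested MHC class II genes were all positive with a median of 0.59, but none was called. Their median difference was 2.31, 0.64 and 1.81 in mice 2, 4 and 5 and −1.08 and −1.26 in mice 1 and 3, the same split as the B cell reads. None of 8 interferon-induced, 8 clock or 10 insulin pathway genes was called, where 6.41% of all genes were; at an unadjusted p below 0.05 there were 1078 genes in all.

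Transcription factors of body position were mostly too low for the main test, which admitted 4 of 31 and called none. Their summed reads overlapped, at 97 to 139 in scWAT and 127 to 148 in vWAT, and the 4 tested members were negative. A few members, chosen after their values were seen or watched by name, were read mostly in 1 depot. Tbx15, a T-box factor of limb and trunk mesoderm, had 9, 1, 17, 11 and 5 reads in scWAT of mice 1 to 5 and none in vWAT, which puts it at least 14.3-fold higher in scWAT. Its triceps mean was 80.5 CPM, above its scWAT mean of 13.6 CPM, and its scWAT reads were highest in mice 3 and 4 and lowest in mouse 2, as the muscle reads were. Hoxc10, a HOX factor of the posterior trunk, had 9, 6, 19, 10 and 8 reads in scWAT and 0, 0, 1, 0 and 0 in vWAT, and no read in the triceps of these mice. Shox2 had 5, 4, 7, 3 and 5 reads against 0, 1, 0, 0 and 1. Without the filter, where 4.60% of 21258 genes were called by edgeR, adjusted p was 1.39e-08 for Tbx15, 9.34e-10 for Hoxc10 and 0.00661 for Shox2. Hoxc8 and Hoxc9, neighbours of Hoxc10 on chromosome 15, did not show this split. Hoxc8 measured 53.4, 22.9, 21.8, 30.8 and 24.4 CPM in scWAT and 32.0, 50.2, 36.8, 57.7 and 46.8 CPM in vWAT (−0.44 ± 0.27, adjusted p = 0.419, edgeR), and Hoxc9 had 21 against 29 reads.

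Some genes of the coelomic lining, chosen after their values were seen or watched by name, were read in vWAT only or mostly there. Upk3b, a mesothelial marker, had 17, 10, 7, 16 and 24 reads in vWAT and none in scWAT, at least 24.7-fold higher. Msln, mesothelin, had 10, 6, 5, 4 and 22 reads in vWAT and none in scWAT, at least 15.7-fold higher. Adjusted p without the filter was 1.46e-14 and 2.14e-08 by edgeR. The epithelial keratin Krt19 had 10, 2, 15, 2 and 3 reads in vWAT and none in scWAT. Osr1, a factor of intermediate mesoderm, had 17, 10, 13, 3 and 11 reads in vWAT against 0, 1, 4, 3 and 0. Tcf21 and Wt1, factors of visceral mesoderm and mesothelium, had 15 and 12 reads over the vWAT libraries and none in scWAT, with adjusted p = 0.0313 and 0.101. Krt19 was highest in the vWAT of mouse 3, the library with epididymis reads, whereas Upk3b was lowest there. Summed, the 20 mesothelial genes had 73 to 159 reads in vWAT and 18 to 46 in scWAT. The 1 member that the main test admitted stood at −0.49 and was not called.

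**Figure D4:**
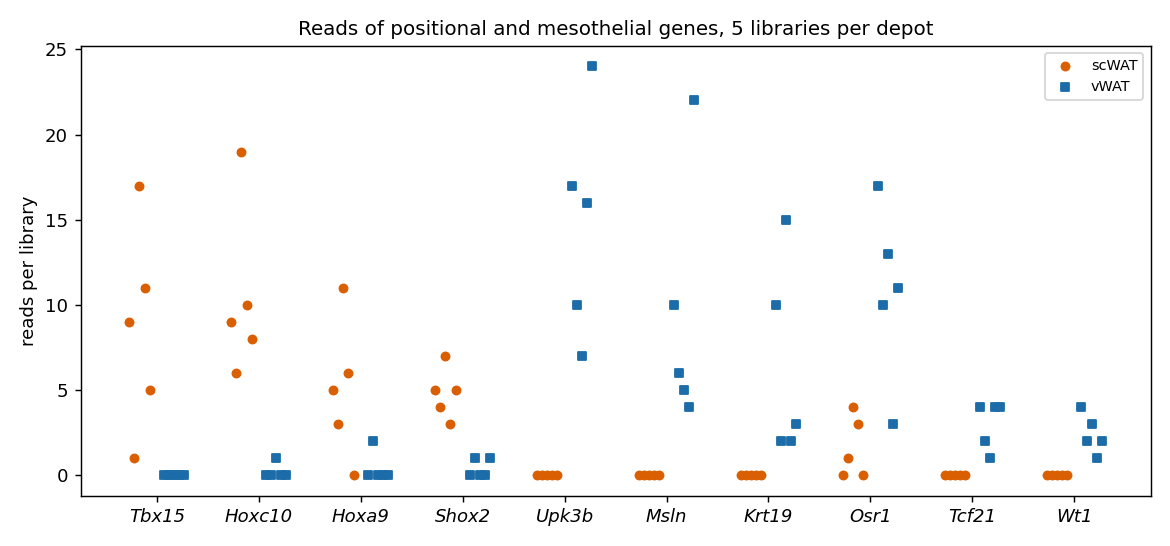
Reads per library of 10 low genes, circles for the 5 scWAT and squares for the 5 vWAT libraries. Tbx15, Hoxc10, Hoxa9 and Shox2 were read mostly in scWAT; Upk3b, Msln, Krt19, Tcf21 and Wt1 had no read in scWAT.

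Markers of mesenchymal progenitors, the cells that give rise to adipocytes, gave no single direction. Of 17 markers, 10 were tested, 2 were called higher in scWAT (Cd55 and Cd24a) and 1 in vWAT, against 1.96% and 4.45% of all genes. The log2 fold change was negative for 7 of the 10. None was called with the scores or after muscle subtraction. Cd34 was higher in vWAT, at 64.0 to 95.5 CPM against 16.3 to 39.4 (−1.25 ± 0.25). Pdgfra, the general marker of these cells, was at 4.88 to 25.7 CPM in scWAT and 13.7 to 27.5 in vWAT and was not called (−0.31 ± 0.34, adjusted p = 0.690, edgeR). Cd24a was called at 1.63 ± 0.42, and its vWAT values were 6.10, 8.09, 53.6, 3.30 and 4.68 CPM. The high one was the library of mouse 3 with epididymis reads, and it lay against the direction of the call. The Cd24a call held in none of the 5 fits without 1 mouse. For Cd55, the scWAT libraries with lymphocyte reads were the highest, as given above.

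Whether this depot difference was particular to chow trained mice was tested in 1 fit over all 40 fat libraries. Against chow sedentary mice, the depot difference of 0 of 7931 genes differed (0%) by edgeR and 0 by DESeq2, while 305 had an unadjusted p below 0.05. Cidea was 4.93 in chow sedentary and 4.74 in chow trained mice, Hadhb 1.24 and 1.46, Agt −4.63 and −3.61, and Lep −1.54 and −1.34. The differences between these groups were −0.20 ± 0.61, 0.22 ± 0.28, 1.02 ± 0.63 and 0.19 ± 0.26 (SE), which does not show that the groups were alike.

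Against high-fat trained mice, 43 of 7931 genes differed in their depot difference (0.542%), 33 of them toward vWAT in the chow trained mice. In this fit 12 of 17 skeletal muscle genes were called higher in scWAT in chow trained and 0 in high-fat trained mice. Their medians were 8.11 and 0.14, and 10.7% and 6.34% of all genes were called. Called higher in vWAT were 3 of 6 heart and 5 of 5 red blood cell genes in chow trained, and 0 of each in high-fat trained mice. How far foreign reads enter the 43 calls was not tested beyond the fit with scores given below. Nnat, neuronatin, a membrane protein of the endoplasmic reticulum, measured 62.0 ± 22.7 CPM in scWAT and 128 ± 27.0 in vWAT of chow trained mice, and 397 ± 154 and 189 ± 62.9 in high-fat trained mice (SD, n = 5). Its depot difference changed direction between the diets, from −0.93 to 1.12, and the difference of −2.05 ± 0.33 had an adjusted p of 0.00427 (edgeR). Mest stood at −2.51 on chow and −0.72 on the high-fat diet (difference −1.79 ± 0.35, adjusted p = 0.0124, edgeR). Its scWAT level was 8.26 ± 2.64 CPM on chow and 164 ± 67.6 CPM on the high-fat diet. In vWAT it was 54.4 ± 24.8 and 284 ± 116 CPM, so both depots were higher on the high-fat diet. Nnmt measured 788 ± 57.3 and 768 ± 67.0 CPM in the depots of high-fat trained mice, against 189 ± 31.0 and 399 ± 97.6 on chow (difference −1.03 ± 0.19, adjusted p = 0.00744, edgeR). Adrb3, Efemp1, Chrdl1, Glb1l2 and Bcat2 differed in the same sense, by −1.24, −1.60, −1.50, −1.37 and −1.34. Ifi27l2a, an interferon-induced gene, and Lgals12, a galectin of lipid droplets, were lower in scWAT relative to vWAT on chow than on the high-fat diet, by −1.41 ± 0.23 and −1.72 ± 0.28.

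The oxidation genes did not pass this test. Hadhb stood at 1.46 and 0.94, Acadvl at 1.13 and 0.98, and mt-Atp6 at 0.76 and 0.63 in chow and high-fat trained mice, and the differences of 0.53 ± 0.28, 0.15 ± 0.26 and 0.13 ± 0.21 had adjusted p = 0.462, 0.895 and 0.885 (edgeR). Penk stood at −4.30 and −4.42 and Agt at −3.61 and −3.99, with differences of 0.13 ± 0.75 and 0.38 ± 0.58. In that fit the fat expansion list had 4 of 6 called higher in vWAT on chow and 1 in each direction on the high-fat diet, where 10.7% and 6.34% of all genes were called. In sedentary mice it had 5 called in vWAT on chow, and 1 in each direction on the high-fat diet, where 12.1% and 5.51% of all genes were called. Caveolae had 5 of 6 called in vWAT in chow trained and 2 in high-fat trained mice; these counts were not tested against each other.

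**Figure D5:**
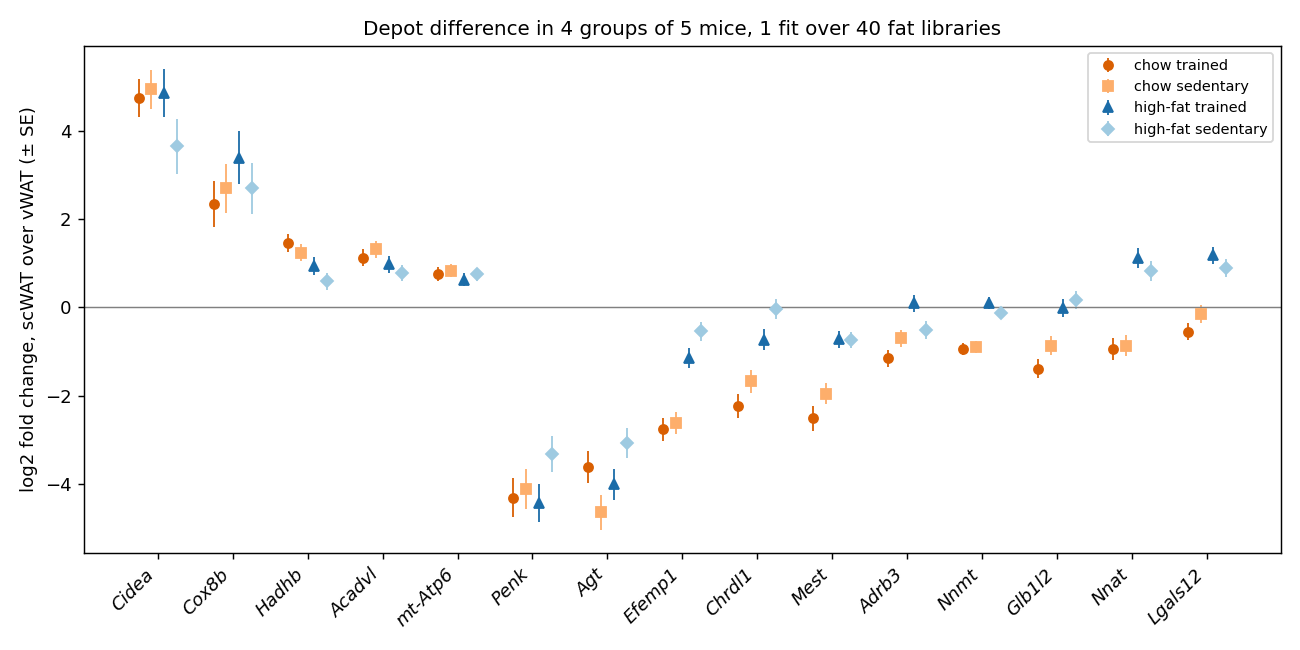
Log2 fold change, scWAT over vWAT, ± SE of 15 genes in the 4 groups of 5 mice, from 1 fit over 40 libraries. Cidea is above 0 and Penk and Agt are below 0 in all groups, whereas Nnat and Lgals12 are below 0 in both chow groups and above 0 in both high-fat groups.

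The 43 calls depended on single mice and on the fit. They numbered 113 without mouse 1 of the chow trained mice, 15 without mouse 2, 13 without mouse 4 and 17 without mouse 5. Without the pairing 6 were called, DESeq2 called 60, and edgeR with the scores as covariates called 0, with 454 genes at an unadjusted p below 0.05. Depot and library code cannot be told apart, since scWAT and vWAT libraries carry separate runs of codes. Within each depot the codes form 2 stretches, mice 1 and 2 and mice 3 to 5; both hold pairs that chose the named genes, so their values are a description. Cidea was 4.80 and 4.71 in these stretches, Hadhb 1.55 and 1.44, Penk −4.05 and −4.44, and Lep −1.22 and −1.39. Such genes had to move 1 way in 5 pairs. Some foreign tissue markers changed direction between the stretches. The 1 tested heart gene stood at −4.91 and −7.19 in mice 1 and 2, against 5.48, 4.60 and 3.16 in mice 3 to 5. The 1 tested intestine gene stood at 3.08 and 2.93, against −4.5, −2.64 and −3.33. Medians of the 4 tested liver genes were 2.32 and 2.05, against −3.16, −1.79 and −2.64.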

How the data were processed

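Per the labels, RNA of 3 tissues from 20 mice was read as 3′ digital gene expression libraries on a HiSeq 2000, with cDNA of 12 wells pooled. The submitters' processing notes name Salmon 0.14.2 and mm10. Per the file headers, the deposited table of 54352 genes holds estimated counts, which the authors had rounded, and a log2 column of CPM made by the authors; only the counts were tested. How strand and molecular identifiers were handled is not given in the sources used here. Overlapping genes and close paralogs are therefore uncertain, and floors of 3 counts cover counting error only.

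The main test was edgeR 4.0.16 in R 4.3.3: TMM, filterByExpr by depot, robust quasi-likelihood, mouse as a block, Benjamini-Hochberg over all genes tested, threshold 0.05. It was tested on simulated data first. Differences between groups were fitted on 40 libraries. Pairing comes from the animal code; deviations of both depots of a mouse correlated at −0.24 to 0.01.

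Up to 12 genes per depot were named by rank of adjusted p. They had to be called, change by 1 log2 unit or more, average 4 or more in log2 CPM, move 1 way in 5 pairs and stay called in every fit without 1 mouse. Up to 3 called members of each of 41 lists, a set of watched genes and up to 5 genes per group difference were added. Genes named for how low reads split by depot, and uncalled list members, were chosen after their values were seen. Set aside were listed foreign tissue genes, genes 10 times higher in triceps, genes with over 60% of signal in 1 library, and predicted genes. Comparison, members, lists and rules were chosen with earlier results of these data known. Promoter sequence is RefSeq's on GRCm38.p6, and 43 of 75 named genes matched. Some genes that the rule named are not reported here.

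Alternatives were DESeq2 1.42.0 and its size factors, library totals, other filters, limma 3.58.1 voom, a fold threshold of 1.5, all 40 libraries, no foreign genes, no block and each mouse left out. Subsets of mice, subtraction of muscle and covariate scores were added after seeing the data.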

Additional observations from a re-analysis of the deposited data

Results flagged for a closer look

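Values of single libraries that stood apart from the other 4 of their depot were found in 10 of the 144 sets of 5 tested, where chance gives about 1 in 20. Cidea, Hp and Ucp1 were highest in the scWAT of mouse 2, at 1126, 681 and 860.3 CPM, with the next values at 458, 445 and 127. Fasn, Hoxc8 and Lgals12 were highest in the scWAT of mouse 1, at 2610.2, 53.4 and 133 CPM against 1290.3, 30.8 and 80.5 for the next. In vWAT, Dcn and Retnla were highest in mouse 1, at 1598 and 1058 CPM, against 1205 and 593. Cd24a and Hoxc10 were highest in the vWAT of mouse 3, at 53.6 and 1.67 CPM, the latter being 1 read where the others had none.

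Depot differences that departed from those of high-fat trained mice, tested by edgeR over 40 libraries, were those of Efemp1 (−1.60), Chrdl1 (−1.50), Glb1l2 (−1.37), Adrb3 (−1.24), Mest (−1.79), Nnmt (−1.03), Bcat2 (−1.34) and Cd24a (3.32), and of Ifi27l2a (−1.41), Lgals12 (−1.72), Nnat (−2.05), Ces1f (−1.82) and Snhg18 (−1.26), on the log2 scale as chow minus high-fat. For Cd24a the high vWAT library of mouse 3 enters that value.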

How the results depend on the processing

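The 357 calls (109 higher in scWAT, 248 in vWAT) became 850 (378 and 472) with all 40 fat libraries, 978 (517 and 461) with no filter, 75 (21 and 54) against a fold of 1.5, and 155 to 452 without 1 mouse (50 to 159 and 105 to 293). DESeq2 called 137 in vWAT, and library totals 374. Of alternatives added after seeing the data, 41 (24 and 17) were called with mice 1 and 2, 166 (71 and 95) with mice 1 and 3, which had the fewest lymphocyte reads, 120 (27 and 93) with mice 1, 2 and 5, 26 (9 and 17) after subtracting muscle and 144 (43 and 101) with the scores as covariates. Fits of fewer mice rest on fewer libraries by construction; other causes were not tested. Without the replicate block, that is without the pairing by mouse, there were 414 (130 and 284), and 4 named genes lost their call. The difference to chow sedentary mice gave 1 call with scores; that to high-fat trained mice gave 6 without the block, 0 with scores and 13 to 113 without 1 chow trained mouse.

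Of 59 named called genes, 43 were called in all 5 fits without 1 mouse, which the rule required of those named by rank. With the scores 39 named genes kept their sign but lost their call, and 34 did so after muscle subtraction. Under muscle subtraction 7 more lost their call and changed sign: Sdhb (−0.34), Ndufc1 (−0.39), Ndufs7 (−0.19), Ndufs8 (−0.35), mt-Atp8 (−0.067), mt-Atp6 (−0.21) and mt-Co3 (−0.41). Uncalled genes did so elsewhere: Hoxc8 was 0.25 with mice 1 and 3 and 0.39 with scores, and Pdgfra was 0.15 with mice 1 and 2, 0.018 with mice 1 and 3 and 0.24 with scores. A count of 0 allows 4.36 to 5.14 CPM per library, so genes below that level cannot be compared by mouse.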

Other observations

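Some called genes outside the naming rule and lists, chosen after their values were seen, were also higher in vWAT. Sult1e1, a sulfotransferase that inactivates oestrogens, measured 0.633 ± 0.872 CPM in scWAT and 45.5 ± 21.5 CPM in vWAT (SD, n = 5). Mgp, an inhibitor of calcification, measured 15.0 ± 8.30 and 146 ± 63.6 CPM, and Thbd, thrombomodulin, 10.3 ± 4.35 and 43.8 ± 9.36 CPM. Mt2, a metallothionein that binds zinc and copper, measured 32.9 ± 16.7 and 114 ± 29.5 CPM. The depots did not overlap for these 4 genes, and each was called in all 5 fits without 1 mouse.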
